A study of Mus musculus with 9 samples.

Results

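The mesenchymal and other Wnt ligands were Wnt1, Wnt2, Wnt2b, Wnt5a, Wnt5b, Wnt9a, Wnt9b, Wnt11 and Wnt16, the family members known mainly from tissues other than the surface ectoderm. They were taken by name from an expression table of 43539 genes, and all 9 were found. The remaining 10 Wnt ligands of the table were used only for comparison. Whole tissue was sequenced, so the values do not show which cells held a transcript, and the name of the group could not be checked cell by cell. Wnt9b, which is also known from facial ectoderm, is kept here because the list names it.

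Wnt ligands are secreted, lipid-modified proteins. The acyltransferase Porcn attaches the lipid and the carrier Wls brings the ligand to the cell surface, where it meets Frizzled receptors. With Lrp co-receptors this stabilises β-catenin and turns on targets such as Axin2, the canonical route. Wnt5a and Wnt11 are best known for routes without β-catenin that run through Ror2, Ryk, Ptk7 and the planar polarity proteins and orient cells in growing limbs, faces and skull. In the head, mesenchyme under the skin and around the brain receives Wnt signals from the ectoderm and makes ligands of its own, and the balance of Wnt signalling bears on whether skeletal precursors become bone or cartilage.

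Tissue came from mouse embryos of mixed strain at E14.5. In the MCAGF8 embryos the Msx2-Cre transgene, which is active in the surface ectoderm of the head and not in the skull mesenchyme, released a Lox-Stop-Lox cassette in front of Fgf8b, driven by the CAG promoter at the ROSA26 locus. Vault tissue was taken from MCAGF8 and from control embryos, and cartilage of the cranial base from controls only. The labels name the controls as wildtype, and the study's methods describe controls as lacking Cre. In the crosses those methods describe, the mice mated to Cre carriers were homozygous for the Fgf8b allele, so that controls carry it too, with the stop cassette in place. The skin was peeled away and the layer between skin and brain was taken as the vault. Each group had 9 samples, mixed 3 at a time before sequencing, so that 3 libraries stood for each group and 9 for the study. An SD below is the spread between 3 pools, which hides that between single embryos, and SEs and intervals come from a fit to all 9 libraries. Base cartilage was collected from the control embryos after their vaults, and which embryos went into which pool is not stated. The fit treated vault and base pools as independent.

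Values are FPKM, fragment counts scaled to transcript length and library size, as deposited. FPKM are per length, so levels can be set side by side between genes. The FPKM of a library summed to between 793249 and 1315981, and 16006 to 17281 genes per library reached an FPKM of 1. Read numbers are unknown, which leaves the values without counting intervals. Across genes, log2 values of libraries of 1 group correlated at 0.959 to 0.980 in the MCAGF8 vault, 0.970 to 0.974 in the control vault and 0.904 to 0.946 in the control base. Base replicate 2 stood apart. The summed FPKM of 11 cartilage genes was 10312 there and 1003 and 1513 in base replicates 1 and 3, both below the 2075 to 3009 of the control vault. The sum of 4 hypertrophic cartilage genes was higher in the base libraries (236, 767 and 204) than in the control vault (103 to 164). Among them Col10a1, the collagen of hypertrophic cartilage, had an FPKM of 115, 658 and 74.2 in base replicates 1, 2 and 3, against 0.94 to 2.05 in the control vault, and was called higher in the base (log2 difference 6.20, adjusted p = 0.00386). Skeletal muscle genes (9 genes, summed FPKM 1918 to 12450) and brain genes (8 genes, 184 to 584) were present in all 3 base libraries, against 1039 to 6561 and 34.1 to 87.4 in the control vault. In the MCAGF8 vault the muscle sum was 26.0 to 263. The sum of 9 bone genes, Runx2 and Sp7 among them, was 1370 to 3357 in the control vault, 140 to 288 in the MCAGF8 vault and 490 to 1376 in the base. The sum of 10 epidermal genes, Krt5 and Krt14 among them, was 51.6 to 88.6, 376 to 629 and 146 to 830 in the same order. Of the cartilage, hypertrophic cartilage, joint, meningeal, dermal, endothelial and Schwann cell lists, 0 genes were called by limma between the vaults. An unadjusted p under 0.05 was reached by 1 to 2 genes of each but the meningeal one, and by 6.34% of all genes. All 11 cartilage genes were higher in the MCAGF8 vault, 4 of them without overlap, where 19.2% of all genes had none. Their sum there was 2858, 4788 and 5256, and its range overlapped that of the control vault. The spread in the fit includes base replicate 2, so the absence of calls does not show that cartilage genes were unchanged.

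RefSeq promoter sequence (GRCm38.p6) was found for 8 of the 9 ligands, with 11 start sites between them. The 250 bases before the start are printed for Wnt9a and Wnt9b, paralogues that lay far apart in level in the control vault, and for the first of 2 starts of Wnt11, the ligand with the highest mean there. Each runs 5′ to 3′ on the strand of the gene and ends at the base before the start. Capitals mark every match, on either strand, to the GC box GGGCGG, the CCAAT box CCAAT, the TATA box TATAAA and the TCF/LEF core CTTTGA, the letters bound by the factors that act with β-catenin.
Wnt9a, chr11:59306680-59306929, plus strand: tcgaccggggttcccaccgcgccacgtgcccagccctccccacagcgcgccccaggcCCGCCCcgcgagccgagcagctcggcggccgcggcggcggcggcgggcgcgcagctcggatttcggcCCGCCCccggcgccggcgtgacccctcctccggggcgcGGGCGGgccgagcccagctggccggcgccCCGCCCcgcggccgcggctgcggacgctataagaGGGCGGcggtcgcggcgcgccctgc
Wnt9b, chr11:103749822-103750071, minus strand: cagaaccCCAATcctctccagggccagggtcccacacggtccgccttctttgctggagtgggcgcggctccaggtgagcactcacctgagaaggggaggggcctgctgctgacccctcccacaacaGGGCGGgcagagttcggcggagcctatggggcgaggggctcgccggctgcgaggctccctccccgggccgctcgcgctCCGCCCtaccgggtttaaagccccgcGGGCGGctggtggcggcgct
Wnt11, chr7:98834862-98835111, plus strand: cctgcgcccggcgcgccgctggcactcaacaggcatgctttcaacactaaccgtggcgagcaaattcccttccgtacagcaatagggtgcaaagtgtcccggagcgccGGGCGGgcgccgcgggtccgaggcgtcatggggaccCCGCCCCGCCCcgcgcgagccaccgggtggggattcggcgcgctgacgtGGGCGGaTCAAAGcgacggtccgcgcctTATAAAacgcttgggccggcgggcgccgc
The Wnt9a window was 84.4% G and C with 48 CpG and 5 GC boxes, and the Wnt9b window was 72% G and C with 22 CpG, 3 GC boxes and 1 CCAAT box. The Wnt11 window had 37 CpG, 4 GC boxes, a TCF/LEF core that begins at -50 and a TATA box that begins at -29, counted from -1 at the last base before the start. In Wnt11, 2 of the GC boxes share a base with each other, and no match overlaps a match to another of these motifs. Of 32851 promoter windows of this length, 32.7% held the GC box, 33.8% the CCAAT box, 12.4% the TATA box and 13.8% the TCF/LEF core, and the median window was 52.4% G and C with 6 CpG. Such a match is a description of the letters only. Among the 11 windows of the ligands, the TCF/LEF core was found in the one shown for Wnt11 and in 1 of 3 of Wnt5b.

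Wnt5a was the one ligand of the 9 that was called between the MCAGF8 and control vaults, and it was higher in the MCAGF8 vault. It is the best known ligand of the route through Ror2 and planar polarity, and drives outgrowth of the limb and face. Its gene (ENSMUSG00000021994) lies at chr14:28504750-28527448 on the plus strand of GRCm38. Its FPKM was 92.3, 74.4 and 72.4 in MCAGF8 vault replicates 1, 2 and 3, and 25.7, 39.0 and 23.8 in the control vault. In the control base it was 26.6, 36.8 and 29.4. The 3 MCAGF8 libraries lay above all 6 control libraries, and the vault and base of the controls overlapped.

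The mean FPKM of Wnt5a was 79.7 ± 11.0 (SD, n = 3) in the MCAGF8 vault, 29.5 ± 8.29 in the control vault and 30.9 ± 5.31 in the control base, a ratio of means of 2.70 against the vault and 2.58 against the base. Differences were tested with limma on the scale log2(FPKM + 1), two-sided, over the 18714 genes whose FPKM averaged 0.5 or more, and a call needed both p under 0.05 and p under 0.1 after Benjamini-Hochberg adjustment over these genes. On that scale, which understates the change of low genes, Wnt5a was 1.43 higher in the MCAGF8 than in the control vault (SE 0.22, 95% interval 0.93 to 1.93, adjusted p = 0.0508). Of the ligands, 7 of 9 passed the filter and 1 of these 7 was called, against 0.604% of all genes tested. On these same samples the study had reported Wnt5a as raised, and Wnt2 as the only Wnt ligand significantly lowered, in the MCAGF8 vault. Neither is therefore independent evidence. The study's lists of significant genes used p under 0.05. The call for Wnt5a was lost without any one of MCAGF8 vault replicates 1, 2 and 3 (adjusted p = 0.283, 0.172 and 0.131), and without control vault replicate 1 or 3 (0.181 and 0.194). It was also lost when each library was rescaled to 1 common sum (0.118), without moderation (0.241) and with the replicate number as a block (0.170). The difference was 1.30 to 1.60 in these fits, so it was the adjusted p that moved, and not the direction. Against the control base the log2 difference was 1.34 (SE 0.22, adjusted p = 0.0114), and this call held in all 18 alternatives tried. In bulk tissue, fewer cells of a type and less RNA per cell cannot be told apart, here and below.

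Most epidermal genes moved with Wnt5a between the vaults, where 7 of the 10 were higher and 2 were called, against 0.604% of all genes. The 3 others were Epcam (log2 difference -0.004), Krt8 (-1.14) and Krt18 (-1.46, unadjusted p = 0.0303 by limma). Within the MCAGF8 vault, replicate 3 had the highest epidermal sum (629) and the lowest Wnt5a (72.4). Krt5, a keratin of the basal layer of skin, had an FPKM of 139 to 252 in the MCAGF8 vault, 1.63 to 29.2 in the control vault and 17.7 to 117 in the base, and was called higher in the MCAGF8 than in the control vault (log2 difference 4.46, adjusted p = 0.0925). The epidermal sum of the base had other members, with Krt8, a keratin of simple epithelia, at 16.1 to 71.5 there and at 1.75 to 2.94 in the MCAGF8 vault, so equal sums do not stand for equal epidermal content. The sum of 5 dermal genes, Twist2 and Lum among them, was 1904 to 2184 in the MCAGF8 vault, 1300 to 1726 in the control vault and 595 to 1220 in the base. Crabp1 made up much of the step between the vaults, at 638 to 1184 against 296 to 569. The log2 differences there were 1.62 for Twist2, 1.11 for Crabp1, 0.02 for Lum, -0.38 for Dpt and -0.46 for En1. By limma 0 of the 5 were called. The part of epidermis and dermis in the Wnt5a difference was not tested.

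**Figure D1:**
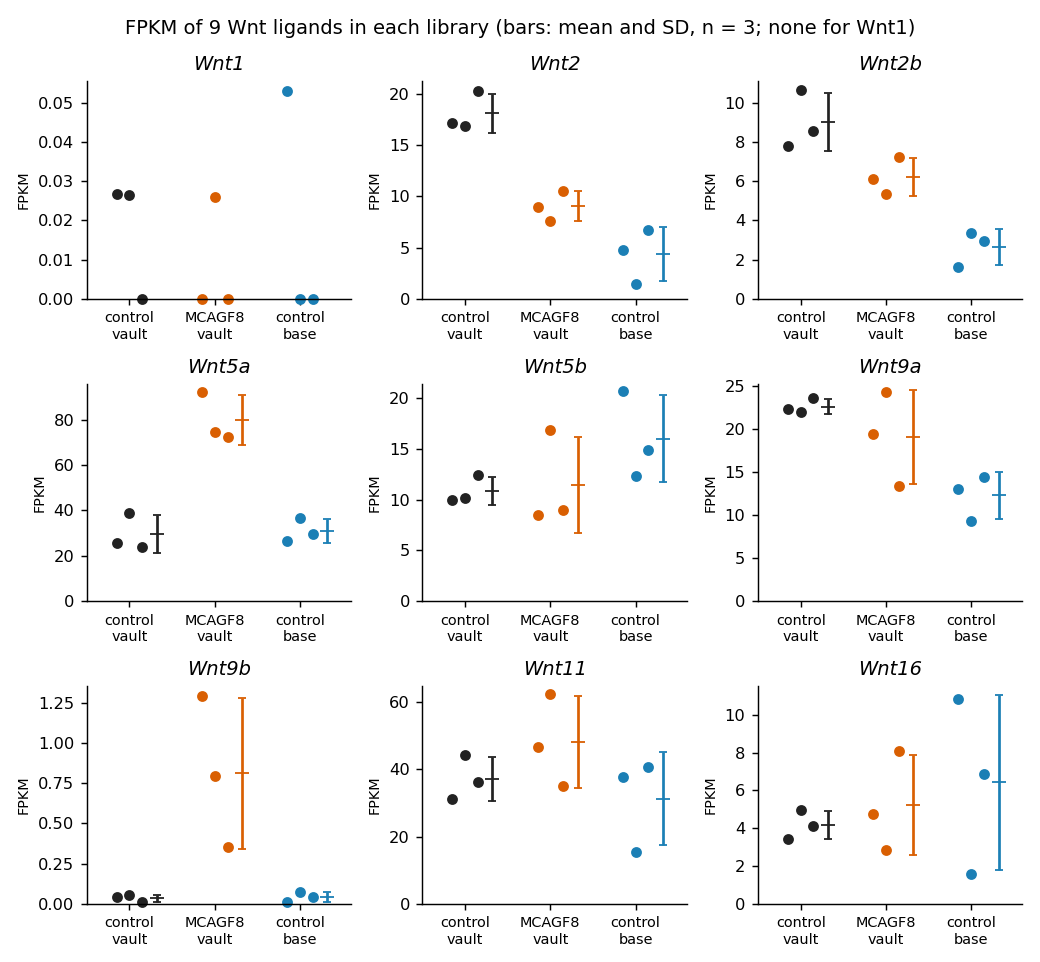
FPKM (vertical axes, linear, from 0, with a scale of its own for each gene) of the 9 Wnt ligands in the control vault, MCAGF8 vault and control base. Points are libraries in the order of replicates 1 to 3, and bars are the mean and SD of 3 (none for Wnt1, which is listed at 0 in 5 of 9 libraries). The MCAGF8 points of Wnt5a sit at 72.4 to 92.3, above all others, and Wnt2 and Wnt2b step down from the control vault to the MCAGF8 vault to the base.

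Wnt5b, the nearest relative of Wnt5a and known from chondrocytes approaching hypertrophy, did not share its pattern. Its FPKM was 8.52, 16.9 and 8.94 in the MCAGF8 vault, 9.94, 10.2 and 12.5 in the control vault and 20.7, 12.3 and 14.9 in the base. MCAGF8 replicate 2 was high and the other two were below every control library, so the groups overlapped. Between the vaults the log2 difference was 0.01 (95% interval -0.63 to 0.66, adjusted p = 1), and its sign turned in 3 of 18 alternatives. The longest run of identical bases between transcripts of Wnt5a and Wnt5b was 29 bases, the longest of any pair among the 9 ligands and far shorter than a read.

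Wnt11, which guides cell movement and kidney branching, was the most abundant of the 9 by mean in both control tissues, with overlap with Wnt5a in each. Its FPKM was 46.7, 62.5 and 35.2 in the MCAGF8 vault, 31.2, 44.2 and 36.2 in the control vault and 37.7, 15.4 and 40.8 in the base. Base replicate 2 was low, and all groups overlapped. The log2 difference between the vaults was 0.34 (95% interval -0.46 to 1.14, adjusted p = 0.969), which leaves room for a doubling. None of the other 2 comparisons passed, at -0.34 for the base against the control vault and 0.68 for the MCAGF8 vault against the base. Without base replicate 2 these became 0.09 and 0.25.

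Wnt2 and Wnt2b, paralogues that act through β-catenin and are best known from the mesenchyme of the developing lung, were lower in the base than in the control vault, and both were called there. Wnt2 (ENSMUSG00000010797) lies at chr6:17988940-18030585 and Wnt2b (ENSMUSG00000027840) at chr3:104945272-104961921, both on the minus strand. The FPKM of Wnt2 was 17.2, 16.9 and 20.3 in the control vault, 8.99, 7.60 and 10.6 in the MCAGF8 vault and 4.81, 1.49 and 6.72 in the base. The groups did not overlap, with the control vault highest and the base lowest. The FPKM of Wnt2b was 7.81, 10.6 and 8.53 in the control vault, 6.09, 5.32 and 7.22 in the MCAGF8 vault and 1.64, 3.36 and 2.94 in the base. It showed the same order with a narrower step between the vaults.

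Wnt2 averaged 18.1 ± 1.92 in the control vault and 4.34 ± 2.65 in the base, 4.18-fold lower, and its log2 difference was -1.99 (SE 0.37, adjusted p = 0.0383). Wnt2b averaged 8.99 ± 1.47 and 2.64 ± 0.898, 3.40-fold lower, with a log2 difference of -1.48 (SE 0.25, adjusted p = 0.0262). Both were called among the 7 tested, where 3.06% of all genes were called, and 3 of 7 lay without overlap, where 15.5% of all genes did. The Wnt2 call was lost without control vault replicate 1, 2 or 3 (adjusted p = 0.123, 0.118 and 0.167), and the Wnt2b call without control vault replicate 2 or 3 (0.112 and 0.116). Both were lost in a fit to the libraries of the compared groups alone (0.162 and 0.125). Leaving out base replicate 2, the library with most cartilage transcripts, gave -1.51 (adjusted p = 0.0104) for Wnt2 and -1.62 (adjusted p = 0.0153) for Wnt2b, and both stayed called.

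Between the vaults Wnt2 was not called. Its mean of 9.05 ± 1.49 in the MCAGF8 vault was 2.00-fold below that of the control vault, with a log2 difference of -0.93 (95% interval -1.77 to -0.10, limma adjusted p = 0.668). Here 2 of the 7 ligands, Wnt5a and Wnt2, had an unadjusted p under 0.05, where 6.34% of all genes had, and 3 of 7 lay without overlap, where 19.2% of all genes did. The third was Wnt2b, with a mean of 6.21 ± 0.959, a log2 difference of -0.47 and an adjusted p of 0.916. No alternative turned the sign of either gene, and none called it, with adjusted p from 0.103 to 1 for Wnt2 and from 0.362 to 1 for Wnt2b. Comparisons that use the control vault share those 3 libraries.

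Against the base, Wnt2b was 1.01 higher on the log2 scale in the MCAGF8 vault (SE 0.25, adjusted p = 0.0534) and was called, and Wnt2 was 1.05 higher (SE 0.37, adjusted p = 0.156) and was not. In that comparison 2 of 7 ligands were called, Wnt5a and Wnt2b, against 8.39% of all genes. An unadjusted p under 0.05 was reached by 4 of 7, against 19.6%, and no overlap was seen in 3 of 7, against 21.9%. The Wnt2b call was lost without any one of the MCAGF8 replicates (adjusted p = 0.105 to 0.183). The Wnt2 difference shrank from 1.05 to 0.58 without base replicate 2 (adjusted p = 0.122), and was called without base replicate 3 (adjusted p = 0.0786).

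**Figure D2:**
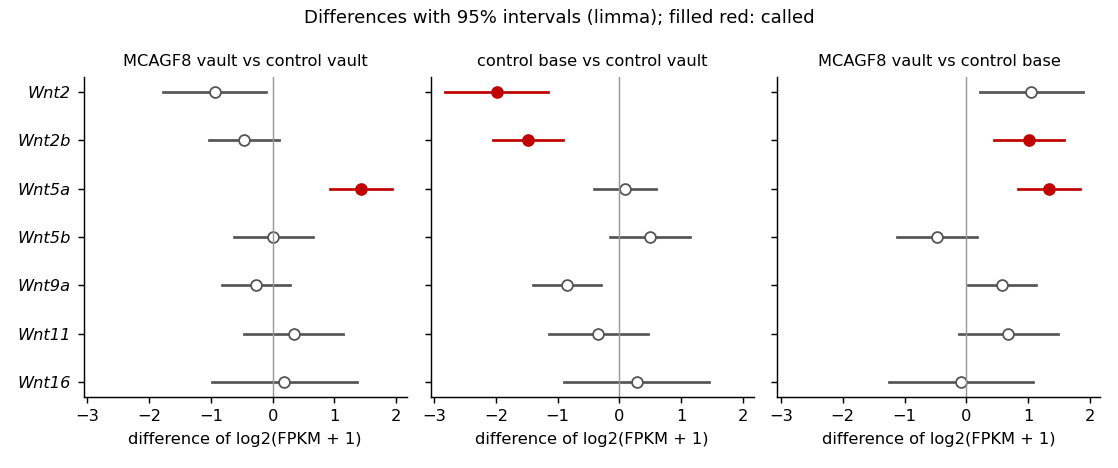
Difference of log2(FPKM + 1) (horizontal axes) for the 7 ligands tested in each of 3 comparisons, the first-named group minus the second. Points are limma estimates over 3 libraries per group, lines are 95% intervals, and filled red marks a call at p under 0.05 and adjusted p under 0.1. Wnt5a is called in both comparisons of the MCAGF8 vault, and Wnt2 and Wnt2b are called lower in the base.

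Bone genes were lower where Wnt2 was lower. All 9 bone genes were lower in the MCAGF8 than in the control vault and 6 were called, against 0.604% of all genes. All 9 were also lower in the base than in the control vault, where 1 was called, against 3.06% of all genes. The order of the groups differed, since the bone sum was lowest in the MCAGF8 vault (140 to 288) while Wnt2 and Wnt2b were lowest in the base. Muscle genes were lower in the MCAGF8 than in the control vault for 9 of 9, 6 of them called, against the same 0.604%. The meningeal sum of 8 genes, Aldh1a2 and Foxc1 among them, overlapped between the vaults (507 to 1069 and 562 to 631) and was 184 to 622 in the base. Ptgds alone was at 422, 147 and 19.5 in base replicates 1, 2 and 3. Of the 8 genes, 7 were lower and 1 higher in the base than in the control vault. No overlap was seen in 4, all lower, where 15.5% of all genes had none. Zic1 was the 1 called (log2 difference -2.77, adjusted p = 0.0713), against 3.06% of all genes. Between the vaults 4 were higher and 4 lower, and 0 were called by limma. The part of these tissues in the Wnt2 and Wnt2b values was not tested.

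**Figure D3:**
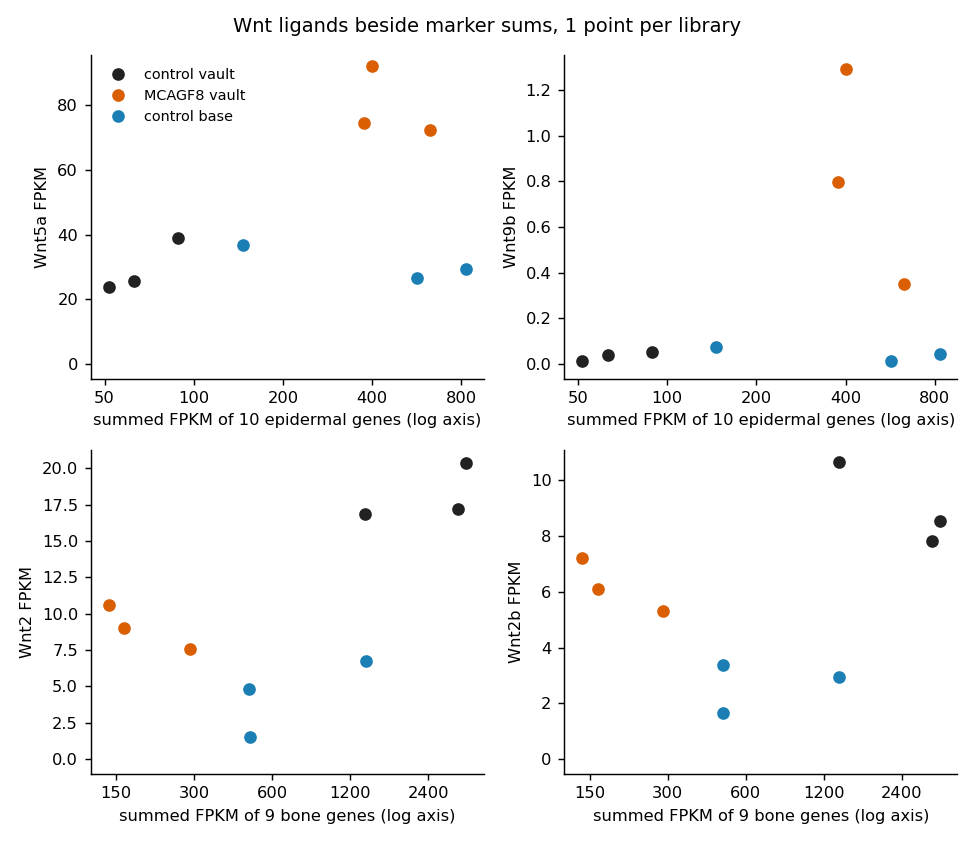
FPKM of a ligand (vertical axes, linear) against the summed FPKM of marker genes (horizontal axes, logarithmic), with 1 point per library and colour by group. In the upper plots the epidermal sums of the MCAGF8 vault (376 to 629) lie above those of the control vault (51.6 to 88.6), and those of the base (146 to 830) rest on a different mix of the 10 genes. In the lower plots the MCAGF8 vault has the lowest bone sums and middle values of Wnt2 and Wnt2b.

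Wnt9a and Wnt9b are paralogues with different uses. Wnt9a is known from forming joints and long bones, and Wnt9b from the kidney duct and the facial processes. The FPKM of Wnt9a was 22.3, 22.0 and 23.6 in the control vault, 19.4, 24.3 and 13.4 in the MCAGF8 vault and 13.1, 9.30 and 14.48 in the base. The base libraries lay below all of the control vault, and the MCAGF8 libraries spread across both. Its log2 difference between base and control vault was -0.85 (95% interval -1.40 to -0.30, adjusted p = 0.141), and it was not called. Between the vaults it was -0.27 (adjusted p = 0.969), and against the base it was 0.58 higher in the MCAGF8 vault (adjusted p = 0.234).

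Wnt9b was near 0 in every control library. Its FPKM was 0.04, 0.05 and 0.01 in the control vault and 0.01, 0.07 and 0.04 in the base, and 1.29, 0.80 and 0.35 in the MCAGF8 vault. The MCAGF8 libraries lay above all others and differed among themselves by more than any other group did. The means were 0.813 ± 0.470 and 0.035 ± 0.021 in the vaults, a ratio of 23.5 between values that were low on both sides and rest on an unknown number of reads. Its mean over the 9 libraries, 0.297, was under the filter. In a fit without the filter to 27685 genes its log2 difference was 0.78 between the vaults (SE 0.16, adjusted p = 0.220), where 0.238% of genes were called. Against the base it was 0.77 (SE 0.16, adjusted p = 0.0529), which passed both thresholds, as did 5.14% of genes. The difference moved with the epidermal sum and with Krt5 between the vaults. Within the MCAGF8 vault, Wnt9b was lowest in replicate 3 (0.35), where the epidermal sum (629) and Krt5 (252) were highest. The base had epidermal sums of 146 to 830, of a different mix, beside the near-0 values of Wnt9b. The part of epidermis in the difference was not tested.

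Both genes have a Wnt gene next to them. Wnt9b lies 24.3 kb from Wnt3 on chromosome 11, and Wnt9a lies 16.2 kb from Wnt3a, elsewhere on the same chromosome. Wnt3, an ectodermal ligand that acts through β-catenin, had an FPKM of 3.47, 3.58 and 3.99 in the MCAGF8 vault and 0.08, 0.64 and 0.05 in the control vault, a log2 difference of 1.93 (adjusted p = 0.0566). Wnt3a, which passed the filter only with the MCAGF8 libraries counted, had 2.10, 3.17 and 1.99 against 0.05, 0.35 and 0.06. Its log2 difference was 1.56 (adjusted p = 0.0723). Neither of their neighbours, Wnt9b (0.78 in the fit without the filter) and Wnt9a (-0.27), was called in this comparison. Wnt1, the midbrain ligand, lies 11.7 kb from Wnt10b on chromosome 15. It was listed at 0 in 5 of 9 libraries and at 0.03 to 0.05 in the other four, which gives no comparison between groups, while Wnt10b stood at 4.36 to 4.97 in the MCAGF8 vault and 3.68 to 4.54 in the control vault.

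Wnt16, known from joints and from bone cortex, was low and variable. Its FPKM was 4.77, 2.84 and 8.09 in the MCAGF8 vault, 3.43, 4.94 and 4.12 in the control vault and 10.8, 1.59 and 6.87 in the base. The lowest and the highest of the 9 values were both in the base, and base replicate 2 was the low one. The log2 difference between the vaults was 0.19 (95% interval -0.98 to 1.36, adjusted p = 0.986), an interval wide enough to hold a doubling. Base replicate 2 also had the lowest value of the 9 libraries for Wnt2, Wnt9a and Wnt11.

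In order of mean level, the control vault ran Wnt11, Wnt5a, Wnt9a, Wnt2, Wnt5b, Wnt2b, Wnt16, Wnt9b and Wnt1. The libraries of Wnt11 and Wnt5a overlapped, as did those of Wnt5b and Wnt2b and those of Wnt9b and Wnt1, and the other neighbours in the order did not. In the MCAGF8 vault Wnt5a came first, and its lowest library (72.4) exceeded the highest of Wnt11 (62.5). Wnt5b stood before Wnt2 there, with overlap, and the rest of the order was that of the control vault. In the base, Wnt5b passed Wnt9a and Wnt16 passed Wnt2 and Wnt2b, and from Wnt5b down to Wnt2b every pair of neighbours overlapped. Wnt11 and Wnt5a, with means of 31.3 and 30.9 there, overlapped too.

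The summed FPKM of the 9 ligands was 156 to 195 in the MCAGF8 vault, 118 to 148 in the control vault and 80.4 to 116 in the base. Wnt5a made up 49.1, 38.2 and 46.4% of that sum in the MCAGF8 vault and 21.9, 26.4 and 18.4% in the control vault. In the base it was 23.0, 45.8 and 25.3%, and the high share was that of replicate 2. Wnt2 made up 4.78, 3.90 and 6.77% in the MCAGF8 vault, 14.6, 11.4 and 15.8% in the control vault and 4.17, 1.85 and 5.79% in the base. The share of Wnt11 was 22.5 to 32.1% in the MCAGF8 vault, within which the control vault lay (26.5 to 29.9%).

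**Figure D4:**
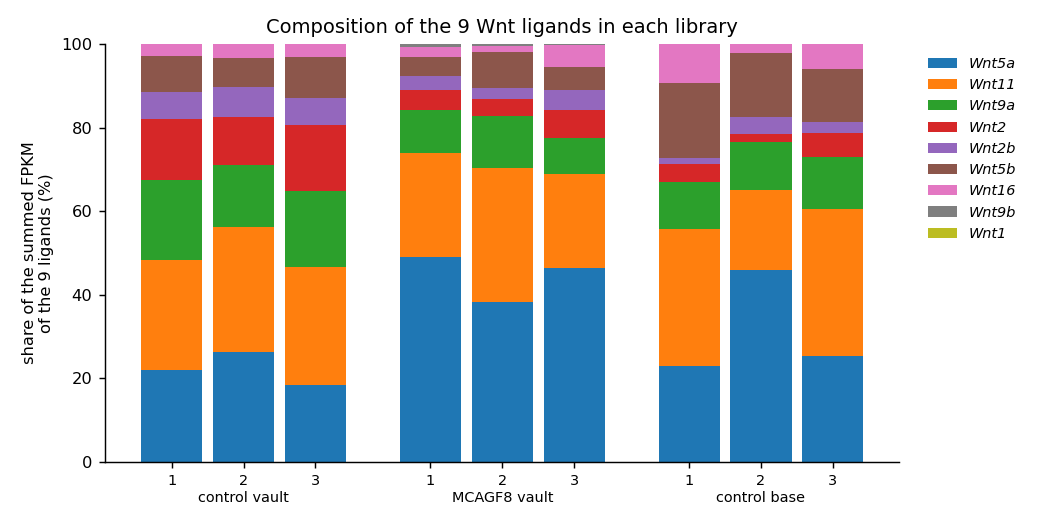
Share of the summed FPKM of the 9 Wnt ligands (vertical axis, %) in each library, with libraries 1 to 3 of each group side by side and 1 colour per ligand. The Wnt5a share is 38.2 to 49.1% in the MCAGF8 vault and 18.4 to 26.4% in the control vault, and the Wnt2 share is below 7% in all MCAGF8 and base libraries and above 11% in the control vault.

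The other Wnt ligands, most of them known from ectoderm, were compared between the vaults as well. Of 8 tested, 8 were higher in the MCAGF8 vault and 4 were called, with a median log2 difference of 1.48. Those called were Wnt3, Wnt3a, Wnt4 and Wnt7b, where 0.604% of all genes were called. Epidermal genes moved with them between the same libraries, with 7 of 10 higher, 2 called and a median of 2.10, and their part was not tested. Over the 7 ligands of this group tested the median was 0.01, with 4 higher and 3 lower, and over all genes it was -0.01. Wnt3a and Wnt7a passed the filter only with the MCAGF8 libraries counted. Their mean FPKM was 2.42 and 1.95 there, 0.15 and 0.10 in the control vault and 0.56 and 0.57 in the base. Wnt9b, also highest in the MCAGF8 vault, did not pass (mean 0.297). The filter thus has a part in the contrast between the 2 sets of ligands, and its size was not tested. Of the genes that handle all ligands, Wls and Porcn among 3 listed, 0 were called by limma between the vaults and 0 had an unadjusted p under 0.05. The FPKM of Wls was 141 to 158 in the MCAGF8 vault, 137 to 160 in the control vault and 82.0 to 106 in the base, where it fell by 0.71 on the log2 scale (adjusted p = 0.0772) beside Wnt2 and Wnt2b.

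On the receiving side, Fzd10 was the 1 called of 12 Frizzled and Lrp genes between the vaults, where 0.604% of all genes were called. It was 1.55 higher in the MCAGF8 vault (adjusted p = 0.0925), with FPKM of 14.8 to 20.6 against 4.39 to 8.28. Of 18 genes for Ror, Ryk and planar polarity, the route that Wnt5a is best known for, 13 were higher and 5 lower in the MCAGF8 than in the control vault. By limma 0 were called, and 3 had an unadjusted p under 0.05 (Ptk7, Celsr1 and Prickle1), where 6.34% of all genes had. No overlap was seen in 5, all higher, where 19.2% of all genes had none. Ror2, a receptor of Wnt5a, had an FPKM of 26.1, 32.7 and 23.5 in the MCAGF8 vault and 24.9, 19.2 and 25.9 in the control vault, and these overlapped. Ryk was at 62.2 to 69.8 and 62.0 to 69.4. Against the base, 5 of the 18 were called higher in the MCAGF8 vault (Ror2, Ptk7, Prickle1, Prickle2 and Daam2), where 8.39% of all genes were called. The log2 differences of these 5 were 0.72 to 0.95.

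Of 10 canonical target and feedback genes, 9 were higher and 1 (Tcf7) lower in the MCAGF8 than in the control vault. By limma, 7 of the higher genes and Tcf7 had an unadjusted p under 0.05, where 6.34% of all genes had. No overlap was seen in 7 of the higher genes and in Tcf7, where 19.2% of all genes had none. The 2 called, against 0.604% of all genes, were Apcdd1 at 1.80 and Sp5 at 1.73 (adjusted p = 0.0723 for both). Axin2, a common gauge of β-catenin signalling, had an FPKM of 34.5 to 47.5 against 19.4 to 25.4. Its log2 difference of 0.92 was not called (by limma, unadjusted p = 0.00188, adjusted p = 0.181). The study counted Axin2, Apcdd1, Nkd1 and Nkd2 among the pathway's inhibitors and negative regulators. From the partial rescue of skull ossification by a reduced Axin2 dose, it proposed that Wnt signalling was lowered. The strength of signalling was not tested here. A list of secreted antagonists, with the membrane proteins Kremen1 and Kremen2, had 14 genes tested, 5 higher and 9 lower. By limma 0 were called, and 2 had an unadjusted p under 0.05 (Sostdc1 and Kremen2), where 6.34% of all genes had. In the base, the antagonists Wif1 (-1.20), Dkk2 (-1.04) and Dkk3 (-0.83) were called lower than in the control vault, as Wnt2 and Wnt2b were. Sostdc1 was called higher (2.16), and 3.06% of all genes were called in that comparison. Some of these lists' genes are among those the study named on these samples.

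**Figure D5:**
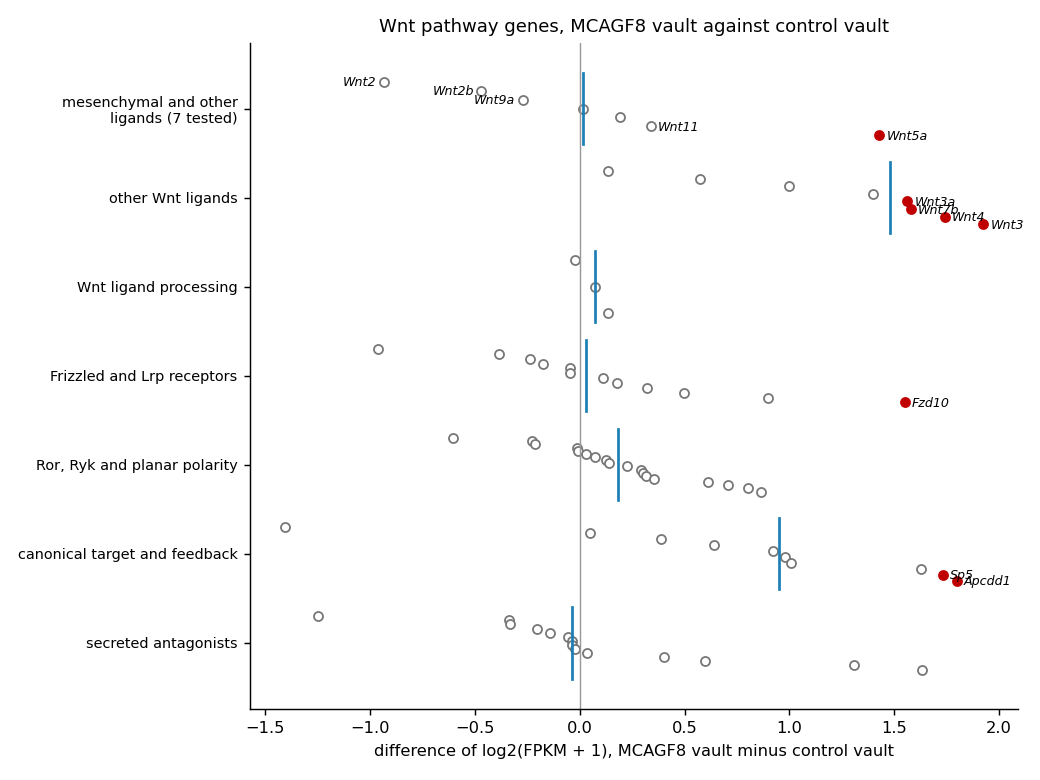
Difference of log2(FPKM + 1) between the MCAGF8 and control vaults (horizontal axis) for the tested genes of 7 Wnt pathway lists (vertical axis). Each point is a gene, filled red where called, and blue lines are list medians. The list of secreted antagonists also holds the membrane proteins Kremen1 and Kremen2. Wnt5a stands alone at 1.43 among its list, whose median is 0.01, while the other Wnt ligands have a median of 1.48. Of those others, Wnt3a and Wnt7a passed the filter only with the MCAGF8 libraries counted, and Wnt9b is not shown because it did not pass.

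Over the 9 libraries, the ligands fell into few shared patterns. Wnt2 correlated with Wnt9a (Pearson's r of log2 values 0.82) and Wnt2b (0.78), and Wnt5a with none of the other 6 above 0.39. These are descriptions over 9 libraries that share 3 group means, with no test. Among 12933 genes whose FPKM averaged 5 or more, the nearest in pattern to Wnt5a were Sh3tc1, Tmem132c and Mtmr11 (r of 0.94 to 0.96). Those nearest to Wnt2 were Ntn5, Tbxa2r and Glt8d2 (0.95 to 0.97), and to Wnt2b Elf4, Adam12 and Tnc (0.97 to 0.98). Wnt9a was nearest to Parp16, Calhm2 and Ifi30 (0.97 to 0.98) and Wnt11 to Dusp7, Nfil3 and March3 (0.95 to 0.96). Wnt5b was nearest to Zfp771 and to the gene models Rpl17-ps9 and Gm12716 (0.95 for each), and Wnt16, with Fgfbp1, Dnajc24 and Apobec1, had the loosest matches (0.88 to 0.91).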

How the data were processed

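The authors made stranded mRNA libraries, sequenced them as single-end reads, mapped these with gSNAP and computed expression with Cufflinks. What they deposited is 1 table of FPKM by Ensembl gene, with 43611 rows. For genome build, annotation and program versions, nothing is given in the sources used here. Depth is unknown, so precision rests on 3 pools per group.

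Here, 63 repeated rows were summed with their partners, and 9 genes with a placeholder number in place of a value (17 cells) were left out. Values were taken as log2(FPKM + 1), without rescaling, and genes averaging 0.5 FPKM or more entered a limma 3.58.1 fit (trend, moderated) in R 4.3.3, with all 9 libraries and 1 mean per group. The fit was tested on simulated data. Named genes were the 9 ligands, genes of fixed Wnt pathway and marker lists, and the 3 nearest genes in pattern per ligand. Members and lists were chosen with earlier results of these data known. Coordinates are from GENCODE M21 on GRCm38 by Ensembl identifier. Tables were handled with pandas 2.3.3 and numpy 2.4.6 in Python 3.11.15, and plots drawn with matplotlib 3.10.9. Alternatives were another pseudocount, filter, scaling, threshold and set of libraries, the highest of repeated rows, no moderation and a replicate block.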

Additional observations from a re-analysis of the deposited data

How the results depend on the processing

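No ligand that was called changed direction under any alternative. Of the ligand values under alternatives, 21 lost a call, 6 gained one and 357 were counted as the same. The last count includes Wnt1 and Wnt9b, which had no call to keep and were judged by the size of the difference. Among them is Wnt9b against the base, which passed both thresholds without the filter (adjusted p = 0.0529). Depth is unknown and limits the low ligands, Wnt1 and Wnt9b, most. Rescaling each library to a sum of 1000000 moved the median log2 difference of all genes from -0.01 to 0.13 between the vaults and from -0.07 to 0.11 for the MCAGF8 vault against the base. Wnt5a was then 1.60 higher between the vaults, with an adjusted p of 0.118, so its call was lost, and relative to those medians its lead was of like size. Rescaling also called Wnt9a, Wnt2 and Wnt11 in comparisons with the base (adjusted p = 0.0678 to 0.0995), and quantile normalization called Wnt2 in the MCAGF8 vault against the base (0.0800). Of the genes called for the base against the control vault, 347 were higher and 226 lower, and 236 and 390 after quantile normalization. For the MCAGF8 vault against the base these were 558 and 1013, 1153 and 810 after quantile normalization, and 768 and 817 after rescaling.

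Between the vaults the 113 called genes became 191 with a pseudocount of 0.1, 66 without a filter, 71 at a mean FPKM of at least 5, 174 in a fit to both groups alone, 0 by a linear model without moderation (1223 at an unadjusted p under 0.05), 35 at an adjusted p under 0.05 and 1186 at an unadjusted p under 0.05, and 11 to 231 with 1 library left out. The 1 ligand called became 0 after rescaling, without moderation (Wnt5a adjusted p = 0.241) and at an adjusted p under 0.05, 2 at an unadjusted p, and 0 to 1 with 1 library left out. For the base against the control vault, 573 genes became 291 at a mean FPKM of at least 5, 108 in a fit to both groups alone, 257 without moderation, 255 at an adjusted p under 0.05, 2396 unadjusted, and 132 to 1322 with 1 library left out. The 2 ligands became 0 in a fit to both groups alone, 1 without moderation, and 0 to 2 with 1 library left out. For the MCAGF8 vault against the base, 1571 genes became 834, 875, 869, 941 and 3675 under the same changes in turn, and 559 to 4580 with 1 library left out. The 2 ligands became 5 after rescaling, 1 in a fit to both groups alone, 1 at an adjusted p under 0.05, 4 unadjusted, and 1 to 3 with 1 library left out. The counts of 231, 1322 and 4580 were those without base replicate 2. Where a change of scaling or moderation moved a count, the cause was not tested. A fit to fewer libraries has fewer samples.

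No pairing by the replicate numbers of the labels was seen. The deviations of same-numbered libraries correlated at -0.55 to 0.37 over 9 pairs, and not every library correlated best with its own number. With 3 libraries per group the deviations depend on one another, and base replicate 2 stood apart. They therefore cannot decide whether vault and base pools shared embryos. With the replicate number as a block, 19 genes and 0 ligands were called between the vaults (Wnt5a adjusted p = 0.170), 234 genes for the base against the control vault, and 918 genes and 1 ligand for the MCAGF8 vault against the base (Wnt2b adjusted p = 0.118).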
